A study of Mus musculus with 2 samples.

Results

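Chaperones and endoplasmic reticulum (ER) folding enzymes were examined in 2 messenger RNA libraries of mouse Th17 cells, 1 labelled CREB knockout (CREB KO) and 1 wildtype (WT). The genes were taken by name from the deposited counts: the Hsp70, Hsp90, small heat shock, J-domain (Dnaj), protein disulfide isomerase (Pdia) and chaperonin (Cct) families, with Hspd1, Hspe1, Hsph1, Tcp1, P4hb, Calr, Canx, Hyou1, Sdf2l1, Creld2 and Ero1l. This gave 88 of the 15574 genes with a read in either library, and 71 of the 88 reached a mean of 1 CPM (counts per 1e+06 reads, scaled for library size) and are called measured here. By background knowledge of where each protein works, 20 were placed in the ER lumen (membrane proteins with a folding domain there included), 5 among ER membrane J-proteins that face the cytosol, 37 in cytosol and nucleus, 10 in the cytosolic chaperonin, 8 in mitochondria and 8 elsewhere or nowhere with confidence.

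Both libraries came from naive T cells of C57BL/6 mice, kept for 6 days with IL6, TGFb, IL1b and IL23 and then restimulated with plate-bound CD3 for 4 h. By their labels they differed in genotype, CREB KO against wildtype; the labels do not say how or in which cells the Creb1 gene was deleted, or how many animals were used. There was no replicate of either genotype, so no test between genotypes was possible and every difference lies between 2 libraries. Intervals are exact conditional binomial 95% intervals that cover counting error only, and reads copied by PCR are not independent molecules.

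The library labelled CREB KO held 23938112 counted reads and the WT library 26525471. Creb1, the targeted gene, had 25 reads in the library labelled CREB KO and 13 in the WT library, a ratio of 2.08 (1.04 to 4.51), so its count does not bear out the label. With a mean of 0.766 CPM it lies under the level needed to be called measured. It has 3 curated RefSeq transcripts, and whether this bears on its count was not tested. Each direction given belongs to the library so labelled. Of 12 Th17 and T cell markers, 11 were measured, and Il1r1 had 0 and 3 reads. Their summed level was 2817 CPM in the library labelled CREB KO and 4041 CPM in the WT library. In the same order, the largest differences in reads were those of Il17f (13041 and 39898) and Il17a (6981 and 13093). The T cell genes were closer between libraries: Cd4 (19552 and 23125), Cd3e (10434 and 11102), Cd3g (8241 and 8687) and Cd3d (5264 and 5756). The sum is thus not a measure of T cell RNA as a whole. Among markers of plasma cells, which are rich in ER chaperones, Igkc, Ighg1, Iglc2 and Tnfrsf17 had no read in either library, Igj had 2 reads in the library labelled CREB KO and 4 in the WT library, Mzb1 had 0 and 2, and only Sdc1 was measured, with 717 and 855 reads. The B cell markers summed to 2.21 CPM in the library labelled CREB KO and 2.04 CPM in the WT library, the myeloid markers to 8.29 and 9.37 CPM, and the CD8 T cell markers to 9.75 and 8.96 CPM. Cd68 (196 and 243 reads) made up most of the myeloid sum, while Lyz2 and Itgam had no read in either library. The CD8 T cell sum came from Cd8b1 alone (234 and 237 reads), as Cd8a had no read. The part of any such cells in the results below was not tested. In bulk RNA, fewer cells of a type and less RNA per cell cannot be told apart.

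Proteins that enter the secretory pathway fold in the ER, where the Hsp70 protein BiP, the Hsp90 protein GRP94, the lectin chaperones calreticulin and calnexin and the disulfide isomerases act on them. When unfolded protein builds up, the unfolded protein response (UPR) raises many of these genes through the factors ATF6 and XBP1, which act together with NF-Y at a promoter motif called the ER stress element. In the cytosol, Hsp70 and Hsp90 proteins work with J-proteins, and the ring-shaped chaperonin CCT folds actin and tubulin. Mitochondria have their own Hsp70 and the Hsp60 and Hsp10 chaperonin, and heat shock factor 1 controls many of the cytosolic and mitochondrial genes through heat shock elements.

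Among the members, exact ER stress elements were found in ER lumen genes only. Promoter windows from RefSeq (GRCm38.p6, 250 bases before to 50 bases after an annotated start) were on hand for 73 of the 88 genes. The element was searched on both strands as CCAAT, then 9 bases of any kind, then CCACG. It was found in 7 of 17 ER lumen genes (41.2%), namely Hspa5, Calr, Hsp90b1, Canx, Pdia6, Dnajc3 and Creld2. No match was found for 4 ER membrane, 32 cytosolic and nuclear, 9 chaperonin, 5 mitochondrial and 6 other genes with a window. Of all 27025 genes with a window, 37 held it (0.137%), and of the 7912 that were also measured, 12 did (0.152%). The letters that the matches share follow from the search pattern, and the other ER lumen windows held no exact match. The matches are given with 10 bases on either side, read so that CCAAT comes first, with the whole match in capitals.
Dnajc3: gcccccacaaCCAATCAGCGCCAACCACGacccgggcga
Hspa5: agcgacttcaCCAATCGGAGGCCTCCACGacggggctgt
Pdia6: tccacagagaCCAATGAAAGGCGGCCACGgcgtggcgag
Creld2: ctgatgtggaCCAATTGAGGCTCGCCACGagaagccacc
Calr: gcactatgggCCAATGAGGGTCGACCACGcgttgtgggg
Hsp90b1, distal match: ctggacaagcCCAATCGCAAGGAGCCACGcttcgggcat
Hsp90b1, proximal match: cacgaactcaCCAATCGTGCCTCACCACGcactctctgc
Canx: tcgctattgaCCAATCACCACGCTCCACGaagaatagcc

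The Dnajc3 stretch lies at chr14:118937817-118937855 (plus strand), with its match at positions -105 to -87 from the start, and the Hspa5 stretch at chr2:34772015-34772053 (plus), at -65 to -47. The Pdia6 stretch lies at chr12:17266481-17266519 (plus), at -98 to -80, and the Creld2 stretch at chr15:88819510-88819548 (minus), at -126 to -108. The Calr stretch lies at chr8:84847065-84847103 (plus), at -162 to -144, and the Canx stretch at chr11:50325790-50325828 (minus), at -145 to -127. Hsp90b1 had a distal match in chr10:86705628-86705666 (minus), at -212 to -194, and a proximal one in chr10:86705523-86705561 (plus), at -107 to -89. The Creld2 element also falls in the window of Alg12, a glycosylation enzyme gene that starts on the opposite strand, at -220 to -202. Hspa5, which encodes BiP, is the standard target of the UPR, and its 250 upstream bases (chr2:34771840-34772089, plus strand) are given with the element in capitals.
Hspa5: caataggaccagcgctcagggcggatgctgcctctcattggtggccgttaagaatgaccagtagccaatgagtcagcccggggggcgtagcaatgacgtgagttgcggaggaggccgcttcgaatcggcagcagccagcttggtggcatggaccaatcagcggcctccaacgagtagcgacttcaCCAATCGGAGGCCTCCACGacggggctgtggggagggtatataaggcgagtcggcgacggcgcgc

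**Figure D1:**
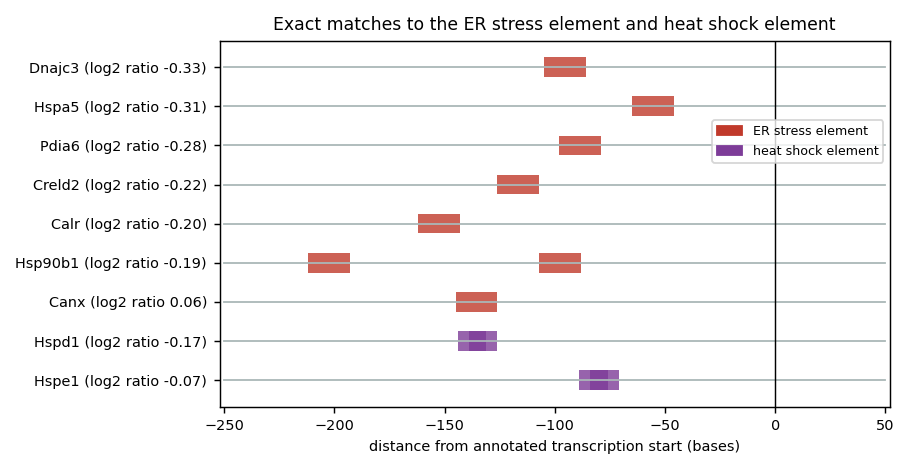
Exact matches to the ER stress element (red) and the heat shock element (purple) along the promoter windows of 9 genes. The x axis is the distance from the annotated start in bases, and each row gives the log2 ratio of the library labelled CREB KO over the WT library; the 7 ER genes carry their matches between -212 and -47, and overlapping heat shock matches are drawn darker.

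ER folding genes mostly had somewhat lower levels in the library labelled CREB KO, and no measured member reached 1.5-fold in either direction. Of 18 measured ER lumen genes, 16 had a ratio (library labelled CREB KO over WT library) below 1 and 14 had an interval wholly below 1, with a median log2 ratio of -0.15. Among all 10462 measured genes, 51.9% had a ratio below 1. The interval lay below 1 for 19.5% of them and above 1 for 16.2%, with a median log2 ratio of -0.01. Highly expressed genes have narrow intervals, so the 10 ER lumen genes that averaged at least 100 CPM were also set beside the 2162 genes at that level. The ratio was below 1 in all 10 and the whole interval in 9 (median -0.15). Of the 2162 genes, 57.4% had such a ratio and 34.6% such an interval, while 24.0% had an interval above 1 (median -0.02). The summed level of the ER lumen genes was 4913 CPM in the library labelled CREB KO and 5531 CPM in the WT library.

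**Figure D2:**
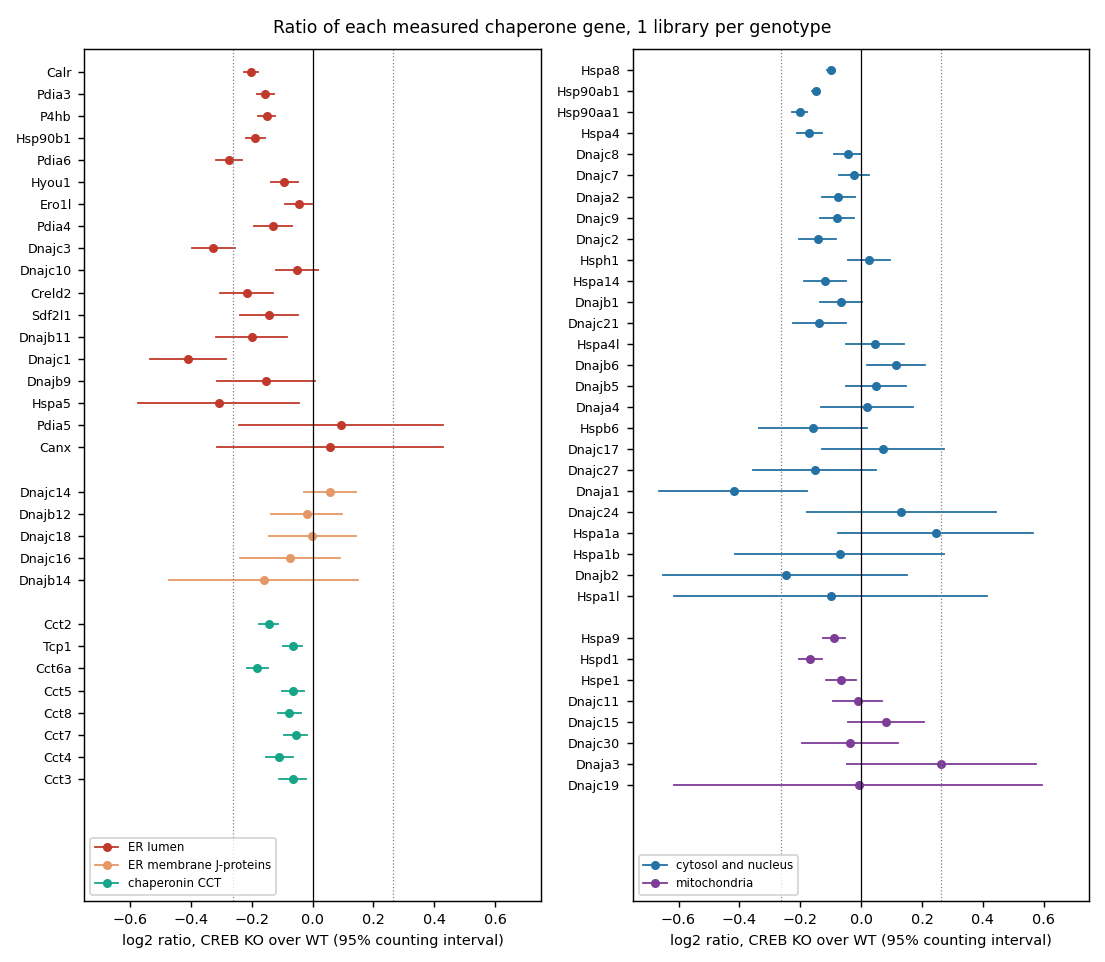
Log2 ratio of the library labelled CREB KO over the WT library (x axis, points) with its 95% counting interval (lines) for the measured members in 5 compartments, ordered by level within each; dotted lines mark 1.2-fold. Of the 18 ER lumen points 16 lie left of 0, and all 8 chaperonin points do, while all 5 ER membrane J-proteins have intervals that span 0.

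The lectin chaperone pair had very different counts. Calr, for calreticulin, had 25323 reads in the library labelled CREB KO and 32115 in the WT library, a ratio of 0.869 (0.855 to 0.884). Canx, for its membrane-bound relative calnexin, had 120 reads in the library labelled CREB KO and 127 in the WT library, a ratio of 1.04 (0.805 to 1.35). The Canx interval therefore holds both no change and the Calr ratio. Per kilobase of annotated exon, Calr had a mean level of 394 CPM and Canx of 1.04 CPM. Pdia3, the disulfide isomerase that works with both lectins, had 19055 reads in the library labelled CREB KO and 23390 in the WT library, a ratio of 0.898 (0.881 to 0.915).

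BiP and 3 of its 5 J-protein partners in the ER lumen had intervals below 1, where 19.5% of all measured genes did. Hspa5 had only 208 reads in the library labelled CREB KO and 284 in the WT library, a ratio of 0.808 (0.672 to 0.969). Dnajc3, a BiP co-chaperone that also binds unfolded protein, had 2887 reads in the library labelled CREB KO and 3988 in the WT library, a ratio of 0.798 (0.760 to 0.837). Dnajc1, a membrane J-protein with its J domain in the lumen, had 875 reads in the library labelled CREB KO and 1281 in the WT library, and its ratio of 0.753 (0.690 to 0.821) was the lowest of the measured ER genes. All 5 ER lumen J-protein genes had a ratio below 1, with a median log2 ratio of -0.20, where 51.9% of all measured genes had such a ratio. Dnajb11, which hands unfolded protein to BiP, had 1099 reads in the library labelled CREB KO and 1392 in the WT library (0.870, 0.803 to 0.942). The intervals of Dnajb9 (573 and 702 reads, ratio 0.900, 0.804 to 1.01) and of the disulfide reductase Dnajc10 (3181 and 3634 reads, 0.965, 0.920 to 1.01) reached 1. Hyou1, the nucleotide exchange factor of BiP, had 7481 reads in the library labelled CREB KO and 8795 in the WT library, a ratio of 0.938 (0.909 to 0.967). Sdf2l1, an ER stress-induced partner of Dnajb11, had 1654 reads in the library labelled CREB KO and 2013 in the WT library (0.906, 0.848 to 0.967), and Creld2, another ER stress-induced gene, had 1896 and 2427 (0.861, 0.810 to 0.915).

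Of the 6 protein disulfide isomerase genes, 5 were measured and 4 had an interval below 1. Those 4 averaged 100 CPM or more. Such an interval was found for 34.6% of genes at that level and for 19.5% of all measured genes. Pdia6 had 7925 reads in the library labelled CREB KO and 10571 in the WT library, a ratio of 0.826 (0.802 to 0.851), lower than that of its relatives P4hb (18467 and 22589 reads, 0.901, 0.884 to 0.919) and Pdia4 (3951 and 4764 reads, 0.914, 0.876 to 0.954). The Pdia6 interval did not overlap those of P4hb, Pdia3 and Pdia4. Pdia5, with 149 reads in the library labelled CREB KO and 154 in the WT library, had a ratio of 1.07 (0.846 to 1.34), an interval that holds 1. Ero1l, the oxidase that recharges these enzymes, had 7400 reads in the library labelled CREB KO and 8417 in the WT library, a ratio of 0.969 (0.939 to 0.9999), with an upper bound just below 1. Hsp90b1, which encodes GRP94, the ER member of the Hsp90 family, had 15684 reads in the library labelled CREB KO and 19688 in the WT library, a ratio of 0.878 (0.860 to 0.897).

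ER genes with and without an exact stress element had overlapping ratios. The 7 with the element had a median log2 ratio of -0.22 (from -0.33 to 0.06), and 6 had an interval below 1, the exception being Canx. The 9 measured ER lumen genes with a window and no exact match had a median of -0.15 (from -0.41 to 0.09), and 6 had an interval below 1. Dnajc1, with the lowest ratio, was among those 9. Outside the members, 5 measured genes held the element: Adcy3, Alg12, Derl3, Hnrnpa3 and Syvn1, of which 4 had a ratio below 1 and 1 an interval below 1 (median -0.10). Among all measured genes, 19.5% had an interval below 1. The difference between genes with and without the element was not tested.

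The members were also searched for TGACGTCA, the site that CREB itself is known to bind. It was found in no ER lumen window and in 1 of the 73 members with a window, the cytosolic Dnajc27, against 549 of 27025 genes (2.03%) and 301 of 7912 measured genes (3.80%). A count of 1 is too small to be set apart from these shares. Dnajc27, a J-protein with a small GTPase domain, had 364 reads in the library labelled CREB KO and 446 in the WT library, a ratio of 0.900 (0.781 to 1.04). The shorter core TGACG, which also lies within the full site and within TGACGTGG, was in 6 of 17 ER lumen windows (35.3%), in 19 of 32 cytosolic and nuclear windows (59.4%) and in 4 of 5 mitochondrial windows. Of all genes with a window 23.0% held it, and of measured ones 36.8%. CCAAT alone, the part of the stress element known to be bound by NF-Y, was in 14 of 17 ER lumen windows (82.4%). The 7 windows with the exact stress element hold it by definition. It was in 14 of 32 cytosolic and nuclear windows (43.8%), 5 of 9 chaperonin, 3 of 5 mitochondrial and 0 of 4 ER membrane windows. Of all genes with a window 41.1% held it, and of measured ones 42.6%. Of the other UPR motifs, TGACGTGG was found in Dnajc25 alone among the members, in 0.714% of all genes and in 1.09% of measured ones. The second form of the stress element (ATTGG, 1 base, CCACG) was found in Dnajb11 alone, in 0.0444% of all genes and in 0.101% of measured ones. These are matches of letters in a short window, not sites shown to be bound.

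Cytosolic and nuclear members had a median nearer to 0, and the more abundant of them were mostly lower. Of 26 measured, 18 had a lower level in the library labelled CREB KO, beside 51.9% of all measured genes. The interval lay wholly below 1 for 11 and above 1 for 1 (median log2 ratio -0.08), against 19.5% and 16.2% of all measured genes. Among the 12 at 100 CPM or more, 11 had a ratio below 1 and 9 the whole interval (median -0.09). Of all genes at that level, 57.4% had such a ratio and 34.6% such an interval (median -0.02). The 14 members below that level were split 7 and 7 (median -0.03). The median of the ER lumen genes was lower than that of the cytosolic and nuclear genes by a log2 difference of -0.08 over all measured members and of -0.06 at 100 CPM or more. With 1 library per genotype this difference could not be tested.

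The 2 most counted members were both cytosolic. Hspa8, the constitutive Hsp70, had 122570 reads in the library labelled CREB KO and 144757 in the WT library, a ratio of 0.933 (0.926 to 0.940). Hsp90ab1, the constitutive Hsp90, had 94975 reads in the library labelled CREB KO and 116137 in the WT library, a ratio of 0.901 (0.894 to 0.909). Together they took 0.909% of all reads in the library labelled CREB KO and 0.984% in the WT library, out of 2.29% and 2.49% for the 88 members (Wilson 95% intervals 2.288% to 2.300% and 2.483% to 2.494%). The inducible Hsp90aa1 had 24388 reads in the library labelled CREB KO and 30928 in the WT library, a ratio of 0.869 (0.855 to 0.884). The 3 Hsp90 genes among the members, 2 cytosolic and 1 in the ER, thus lay between 0.869 and 0.901. Their mitochondrial relative Trap1, not a member, had 3278 reads in the library labelled CREB KO and 3702 in the WT library (0.976, 0.931 to 1.02).

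Exchange factors of the Hsp110 group did not share a direction. Hspa4 had 8878 reads in the library labelled CREB KO and 11009 in the WT library, a ratio of 0.889 (0.864 to 0.914). Its relatives Hsph1 (3412 and 3694 reads, 1.02, 0.971 to 1.07) and Hspa4l (1713 and 1830 reads, 1.03, 0.965 to 1.10) had intervals that held 1 and did not overlap that of Hspa4. The ribosome-bound pair Hspa14 and Dnajc2, which meets new proteins as they leave the ribosome, was close together: Hspa14 had 3161 reads in the library labelled CREB KO and 3784 in the WT library (0.921, 0.878 to 0.966) and Dnajc2 had 4094 and 4983 (0.906, 0.869 to 0.944). The stress-inducible Hspa1a had 171 reads in the library labelled CREB KO and 159 in the WT library (1.18, 0.950 to 1.48), and Hspa1b had 134 and 155 (0.953, 0.750 to 1.21). These 2 genes are near-identical copies, so the split of reads between them is uncertain.

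Cytosolic J-proteins had ratios on both sides of 1. Of 15 measured, 10 had a ratio below 1 (median log2 ratio -0.07), against 51.9% of all measured genes. The standard deviation of their log2 ratios was 0.14, as for the ER lumen J-proteins (0.14), and was 0.27 over all measured genes. Dnaja1, a major Hsp70 co-chaperone, had 236 reads in the library labelled CREB KO and 348 in the WT library, a ratio of 0.748 (0.631 to 0.884), the lowest of all measured members. Its relative Dnaja2 had 5218 reads in the library labelled CREB KO and 6060 in the WT library, a ratio of 0.949 (0.914 to 0.985). Dnajb1, the heat-induced J-protein, had 3156 reads in the library labelled CREB KO and 3642 in the WT library (0.955, 0.910 to 1.002), and Dnajc7, which passes clients between Hsp70 and Hsp90, had 6234 and 6980 (0.984, 0.951 to 1.02). The spliceosome-associated Dnajc8 had 7850 reads in the library labelled CREB KO and 8922 in the WT library (0.970, 0.941 to 0.9997), and the histone chaperone Dnajc9 had 4863 and 5662 (0.947, 0.911 to 0.984). Dnajb6, a suppressor of protein aggregation, was the single measured member with an interval above 1, at 1747 reads in the library labelled CREB KO and 1778 in the WT library (1.08, 1.01 to 1.16).

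**Figure D3:**
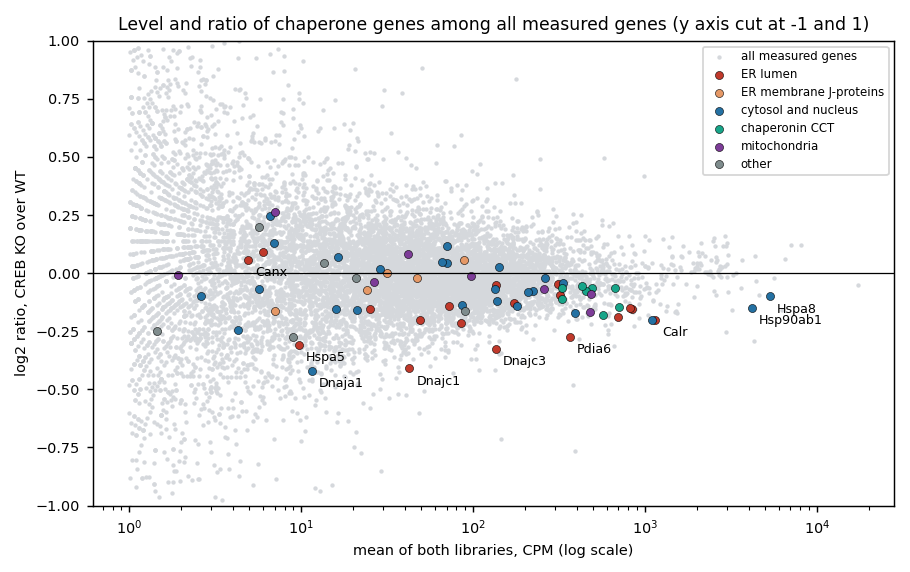
Mean level of both libraries (x axis, CPM, log scale) against the log2 ratio of the library labelled CREB KO over the WT library (y axis) for the 71 measured members by compartment, with all 10462 measured genes in grey. At 100 CPM or more 32 of 33 members lie below 0, and the named low-count genes Hspa5, Dnaja1 and Canx stand far left of the other major chaperones.

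Subunits of the chaperonin CCT lay close together. All 8 measured subunit genes had an interval below 1, with a median log2 ratio of -0.07 and a range from -0.18 to -0.06. All 8 averaged 100 CPM or more, a level at which intervals are narrow and 34.6% of genes had one below 1. Cct6a had 12779 reads in the library labelled CREB KO and 15975 in the WT library, a ratio of 0.882 (0.861 to 0.902), and Cct2 had 15996 and 19486 (0.905, 0.886 to 0.924). The other 6 ran from 0.927 for Cct4 (7616 reads in the library labelled CREB KO, 9057 in the WT library) to 0.962 for Cct7 (10116 and 11591 reads). Tcp1, which names the complex, had 15765 reads in the library labelled CREB KO and 18175 in the WT library (0.956, 0.936 to 0.977), close to Cct5 (0.956), Cct3 (0.956) and Cct8 (0.948). The interval of Cct6a overlapped that of Cct2 and of Cct4 but none of the others. Although the complex holds its subunits in equal number, their mean levels per kilobase ranged from 51.7 CPM for Cct3 to 274 CPM for Cct2. The testis-type Cct6b had 3 reads in the library labelled CREB KO and 16 in the WT library and was not measured, nor was Cct8l1 with 2 in each.

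Of the mitochondrial members, only 3 core chaperones had an interval below 1. All 3 averaged 100 CPM or more, where 34.6% of genes had such an interval. The 3 core chaperones were lower: Hspa9, the mitochondrial Hsp70, had 11336 reads in the library labelled CREB KO and 13297 in the WT library (0.940, 0.916 to 0.964). Hspd1, which encodes Hsp60, had 10854 reads in the library labelled CREB KO and 13426 in the WT library, a ratio of 0.891 (0.869 to 0.914). Hspe1, which encodes its lid Hsp10, had 6061 reads in the library labelled CREB KO and 6993 in the WT library, a ratio of 0.955 (0.923 to 0.989). The Hspd1 and Hspe1 intervals did not overlap. The genes stand head to head on chromosome 1 (GRCm38, annotated from 55077835 to 55088243 on the minus strand and from 55088132 to 55091307 on the plus strand), and their promoter windows overlap. The stretch that both windows cover held overlapping heat shock elements (GAA, 2 bases, TTC, 2 bases, GAA, or its complement pattern beginning with TTC), and 1 of them is shown in capitals from chr1:55088049-55088081, plus strand, at -89 to -77 from the Hspe1 start.
Hspe1: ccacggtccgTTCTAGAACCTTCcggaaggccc

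Of the 73 members with a window, Dnajb6 and Hsph1 also held the heat shock pattern, as did 179 of 27025 genes (0.662%) and 0.607% of measured genes with a window. Hspa8, Hsp90ab1, Hsp90aa1 and Hspa9 had no window here and were not searched. The other 5 mitochondrial genes had intervals that held 1, among them the import motor J-proteins Dnajc15 (1025 reads in the library labelled CREB KO, 1068 in the WT library, ratio 1.06, 0.970 to 1.15) and Dnajc19 (46 and 51 reads). Dnajc11, tied to the inner membrane folds, had 2332 reads in the library labelled CREB KO and 2591 in the WT library (0.992, 0.938 to 1.05), and Dnajc30 had 626 and 708 (0.975, 0.874 to 1.09). Dnaja3, the J-protein partner of Hspa9, had 184 reads in the library labelled CREB KO and 169 in the WT library, a ratio of 1.199 (0.969 to 1.49). Lower counts give wider intervals, and those of Dnajc11, Dnajc30 and Dnajc19 also held the Hspa9 ratio of 0.940, while those of Dnajc15 and Dnaja3 did not. Over all 8 mitochondrial genes the median log2 ratio was -0.02.

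For the J-proteins of the ER membrane that face the cytosol, every ratio lay within counting error of 1: all 5 had intervals that held 1, with a median log2 ratio of -0.02. So did 6732 of the 10462 measured genes, and all 5 averaged under 100 CPM. The intervals of Dnajc16 and Dnajb14 also held the ER lumen median ratio of 0.899. Those of Dnajc14, Dnajb12 and Dnajc18 lay above it. Dnajc14 had 2152 reads in the library labelled CREB KO and 2278 in the WT library (1.04, 0.981 to 1.10), Dnajb12, which helps send membrane proteins to degradation, had 1129 and 1261 (0.987, 0.910 to 1.07), and Dnajc18 had 760 and 838 (0.9996, 0.905 to 1.10). Dnajc16 had 562 reads in the library labelled CREB KO and 652 in the WT library (0.950, 0.847 to 1.07), and Dnajb14 had 159 and 196 (0.894, 0.721 to 1.11). Their summed level was 198.4 CPM in the library labelled CREB KO and 197.5 CPM in the WT library. Of the members placed elsewhere, the endosomal Dnajc13 had 2021 reads in the library labelled CREB KO and 2495 in the WT library (0.893, 0.842 to 0.947), and Dnajc25 had 194 and 259 (0.826, 0.682 to 0.998). Dnajc4, Hspb11, Dnajc5 and Dnajb13 had intervals that held 1.

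By a rule of 1.2-fold or more with an interval excluding 1, 6 of the 71 measured members were lower and 0 were higher. The lower ones were Dnajc1, Dnajc3, Hspa5 and Pdia6 in the ER, the cytosolic Dnaja1 and Dnajc25. Among all measured genes, 5.48% were lower and 6.19% higher by that rule, so the count of lower members is near the background. At 100 CPM or more, 2 of 33 members were lower (Dnajc3 and Pdia6), against 1.02% of the 2162 genes, and 0 were higher, against 1.2%. Without a fold limit, 38 of 71 had an interval below 1 and 1 above, where 19.5% and 16.2% of all measured genes did. At 100 CPM or more 29 of 33 had one below and 0 above, where 34.6% and 24.0% of the genes at that level did.

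The 17 members under 1 CPM had at most 24 reads in a library. They include Hspa13 and Pdia2 in the ER and the small heat shock genes Hspb1, Hspb7, Hspb8 and Hspb9. Hspb1 had 10 reads in the library labelled CREB KO and 2 in the WT library, a ratio of 4.57 with an interval of 1.17 to 51.7, and Pdia2 had 4 and 16 (0.299, 0.067 to 0.854). Hspb8 and Dnajc28 had no read in the WT library and 2 and 1 in the library labelled CREB KO, too few for a ratio.

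Some major chaperones had low counts for genes known to be abundant in most cells. Hspa5 had a mean level of 2.29 CPM per kilobase and has 2 curated RefSeq transcripts. Dnaja1 had 1.33 CPM per kilobase and Canx 1.04, and each has 3 curated transcripts. The 13 measured ER lumen genes with 1 such transcript had a median of 62.5 CPM per kilobase, and the 5 with more had 3.64. Hspa5 and Canx are themselves among those 5, so this contrast rests partly on the low counts just described. Over measured protein-coding genes the medians were 9.74 (5546 genes) and 4.03 (4527 genes). Pdia4 and Hspa8, each with 2, reached 71.8 and 1230 CPM per kilobase, while Pdia5, with 1, had 2.17. Whether reads of Hspa5, Canx and Dnaja1 were dropped in counting was not tested.

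Genes that work alongside the members were described from 5 lists of non-members. Of 34 genes of ER quality control, ER-associated degradation and the translocon, all measured, 24 had a lower level in the library labelled CREB KO. The interval lay below 1 for 16 and above 1 for 1 (median log2 ratio -0.09), beside 19.5% and 16.2% of all measured genes. Many of the 34 averaged 100 CPM or more, where these shares were 34.6% and 24.0%. Vimp, a degradation factor of the ER membrane, had 1390 reads in the library labelled CREB KO and 1923 in the WT library (0.797, 0.743 to 0.854), and Sil1, an exchange factor of BiP, had 497 and 665 (0.824, 0.732 to 0.927). Both passed the 1.2-fold rule, and no other gene of this list did. The UPR sensors and factors were split, with 3 intervals below 1 and 4 above among 15 (median -0.03), again beside 19.5% and 16.2%. Atf6 had 1162 reads in the library labelled CREB KO and 1457 in the WT library (0.879, 0.813 to 0.950). Its relative Atf6b had 2029 and 2078 (1.08, 1.01 to 1.14), and the NF-Y subunit gene Nfyb had 3042 and 3069 (1.09, 1.04 to 1.15). Xbp1 had 380 and 410 (1.02, 0.886 to 1.18), and these counts do not show how much of the Xbp1 transcript was spliced.

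Of 19 measured genes for heat shock factors and cytosolic co-chaperones, 10 had an interval below 1 and 2 above (median -0.07). Such intervals were found for 19.5% and 16.2% of all measured genes. Most of the list averaged 100 CPM or more, a level at which 34.6% and 24.0% of genes had them. Bag2, which restrains the ubiquitin ligase partner of Hsp70, had 180 reads in the library labelled CREB KO and 328 in the WT library, a ratio of 0.605 (0.501 to 0.728), and was the single gene of the 5 lists past 1.5-fold; its mean of 9.95 CPM is low, and it was named after its value was seen. Hsf1 had 2237 reads in the library labelled CREB KO and 2211 in the WT library (1.12, 1.05 to 1.18). Prefoldin and chaperonin partner genes had 6 ratios below 1 and 6 above among 12 (median -0.03). Of 13 mitochondrial folding and protease genes none had an interval below 1, and 1 had an interval above 1, the protease gene Lonp1 with 5774 reads in the library labelled CREB KO and 5504 in the WT library (1.16, 1.11 to 1.19996; median 0.01).

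**Figure D4:**
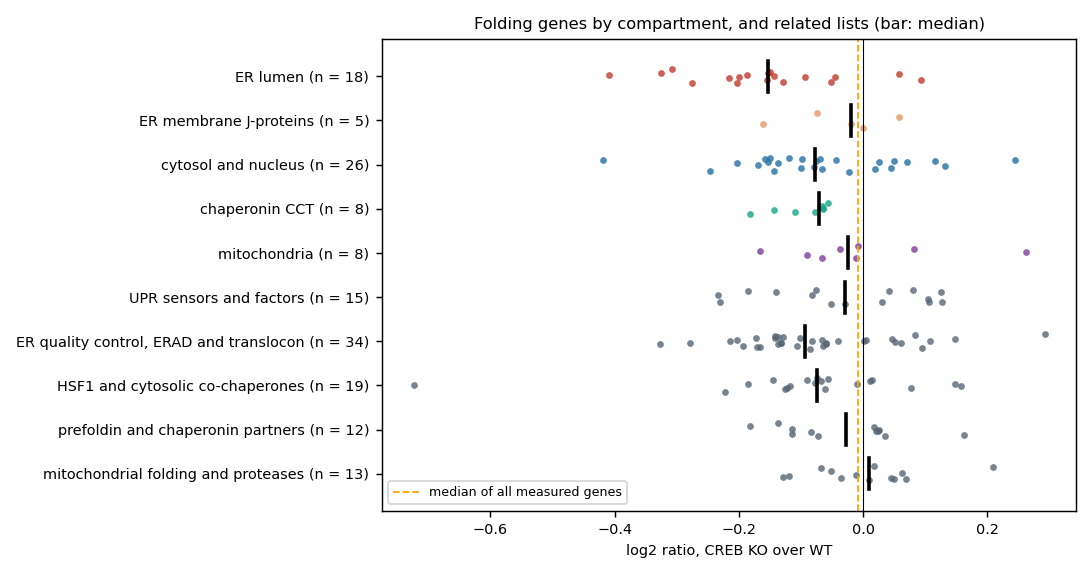
Log2 ratio of the library labelled CREB KO over the WT library (x axis) for each measured gene (points) in 5 compartments of members (coloured) and 5 lists of related genes (grey); black bars are medians and the dashed line is the median of all measured genes. The lowest medians are those of the ER lumen (-0.15) and of ER quality control (-0.09), and mitochondrial folding and protease genes centre at 0.01.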

How the data were processed

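The data are RNA-seq counts from 1 library labelled CREB KO and 1 labelled wildtype (WT). Per the file headers, the authors deposited raw counts of uniquely assigned reads per gene symbol; they are whole numbers that sum to the total in each header. A gene listed in 1 library was taken as 0 in the other. Tools listed in the submitters' processing notes are bcl2fastq and HTSeq, with build mm10; which aligner, annotation or strand setting was used is not stated there. Library sizes were scaled by edgeR 4.0.16 (TMM) in R 4.3.3, and ratios used a prior count of 0.5. The edgeR quasi-likelihood test and the DESeq2 test need replicates and were not run, so no p-value is given. Genes needed a mean of 1 CPM. Levels per kilobase use the union of annotated exons (GENCODE M21, GRCm38), found with transcript numbers for all 88 members; long unused exons lower them. Motifs were exact matches in RefSeq windows (GRCm38.p6). The rule for named genes took the 6 measured members with the highest mean of each compartment, those past 1.2-fold, up to 3 genes per related list past 1.2-fold with a mean of at least 10 CPM, and Creb1; all others named were chosen after their values were seen. Members, lists and compartments were chosen with earlier results of these data known. Steps were tested on simulated counts that held counting error only, so spread from PCR or between cultures was not covered. Python 3.11.15, numpy 2.4.6, pandas 2.3.3, scipy 1.17.1 and matplotlib 3.10.9 were used. Alternatives were other scalings (DESeq2 1.42.0 size factors among them), filters, a prior count of 5, members with 1 curated transcript and a 1.5-fold rule. Near-identical copies and antisense or overlapping genes may share or lose reads.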

Additional observations from a re-analysis of the deposited data

How the results depend on the processing

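No paired analysis was possible because each genotype has 1 library, and leaving out a library leaves no comparison. The medians of 5 compartments kept their sign under scaling by library totals, DESeq2 size factors or upper quartiles, without a filter, at 10 CPM, with a prior count raised to 5, and over members with 1 curated transcript. They also did at 100 CPM, a filter chosen after seeing the data that leaves no ER membrane J-protein. The difference between ER lumen and cytosolic medians, which scaling cannot move, ranged from -0.09 to -0.06 over the other alternatives. The ER lumen median ranged from -0.17 to -0.15, but the ER membrane median from -0.07 to -0.01 and the mitochondrial one from -0.09 to -0.02. Scaling moved log2 ratios by at most 0.008. The 6 members lower by 1.2-fold became 5 with library totals, 4 at 10 CPM, 3 with 1 curated transcript, 2 at 100 CPM and 0 at 1.5-fold, each filter or fold leaving fewer genes that could pass, and 8 without a filter, which also gave 1 higher member (Hspb1, 10 and 2 reads). Depth limits the low-count genes: Hspa5, Canx and Dnaja1 rest on 120 to 348 reads, and without replicates the spread between cultures is unknown.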
